A study of Sus scrofa with 8 samples.

Results

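Integrins are the receptors that hold cells to the matrix around them, and each one is a pair of an alpha and a beta subunit that span the membrane. The pair decides the ligand: some recognise fibronectin and other proteins with the Arg-Gly-Asp (RGD) motif, some laminin and some collagen. Inside the cell the beta tail recruits talin and kindlin, which link the receptor to actin and to focal adhesion kinase signalling. CD44 is a receptor of another family that binds hyaluronan, a matrix sugar chain. Pluripotent stem cells use laminin and RGD receptors to stay attached and to survive as colonies. Described here are 10 genes of this kind, the integrin subunits ITGA4, ITGA5, ITGA6, ITGA11, ITGAV, ITGB1, ITGB2, ITGB4 and ITGB5, and CD44. They were found by matching these symbols to the pig Ensembl gene names. All 10 matched exactly 1 of the 24358 identifiers in the count table, and all 10 were among the 13250 genes with enough counts to be tested.

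The study asked what the transcription factor IRF-1 does in porcine induced pluripotent stem cells (piPSCs), and its RNA-seq comprised 4 bulk libraries, 2 per group. Both groups were piPSCs made from embryonic fibroblasts with an OCT4-tdTomato reporter, using a doxycycline-inducible OSKM vector and the M2rtTA transactivator, and kept with doxycycline, LIF and the inhibitors CHIR99021 and PD0325901, whereas the sample labels name an LCDMV culture. The IRF-1 overexpressing cells carried PB-CAG-IRF1-Flag, a piggyBac transposon in which the constitutive CAG promoter drives pig IRF-1 with a Flag tag. The control cells received the empty PB-CAG-Flag. Puromycin selection followed in each case, and which clone or line each library came from was not given in the sources used here. The genotype label reads as overexpression for every library, so replicates 1 and 3 were taken as overexpressing and replicates 6 and 8 as control from the library numbers in the study's own legend. Feeder cells were removed by replating the dissociated cells for 1 hour and collecting those still in suspension, so cells that attached in that time were left behind in both groups. The libraries held 24923319 and 20858333 counts (overexpressing 1 and 3) and 15925429 and 17097669 counts (control 6 and 8). In every pair of values given, overexpressing replicate 1 precedes 3 and control replicate 6 precedes 8. Levels are in CPM (counts per 1000000 counts of the library, its size scaled by TMM), and a limit of 3 counts corresponded to between 0.12 and 0.188 CPM.

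IRF1 itself (ENSSSCG00000014277, chromosome 2, 134776124 to 134783819) had 8206 and 5485 counts with IRF-1 overexpression and 55 and 56 in the control. Its log2 fold change was 6.46 (standard error, SE, 0.21; adjusted p = 3.65e-05 in edgeR's quasi-likelihood test, Benjamini-Hochberg method), so the counts separated the groups in the direction of the assignment. Reads from the transposon and from the cell's own gene are counted together.

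Overexpression of IRF-1 went with lower transcript levels of the 10 integrin and CD44 genes described. In all 10 genes both overexpressing libraries lay below both control libraries, which held for 33.8% of all genes tested. A gene was called when its adjusted p was under 0.05 and its log2 fold change was at least 1 in size. By this rule 8 of the 10 genes were lower, against 10.6% of all genes tested. The 10 genes were chosen with earlier results of these data known, so their share is not that of an unselected set. Of all 23 integrin subunit genes with a symbol 19 were tested, 8 of them lower (42.1%) and 1 higher (5.26%), at a median log2 fold change of -1.19. None of the 10 was higher with edgeR, DESeq2 or limma-voom, nor at an unadjusted p under 0.05, since every fitted value was negative, and 8.61% of all genes tested were higher. ITGAV and ITGB5 kept to the same direction but stayed short of the fold limit. Without that limit all 10 were lower, against 15.5% of all genes tested. The median log2 fold change of the 10 was -2.40, beside 0.00 over all genes tested, and it was -1.80 without control replicate 6. Mitochondrial genes held 8.62% and 7.57% of the counts with overexpression and 6.29% and 6.68% in the control. The part of this difference in the integrin values was not tested. In bulk libraries a loss of cells of one type and less RNA in each cell cannot be told apart. Nothing in the sources states that the libraries came from separate cultures, so p-values measure the spread between these libraries, which may be technical.

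**Figure D1:**
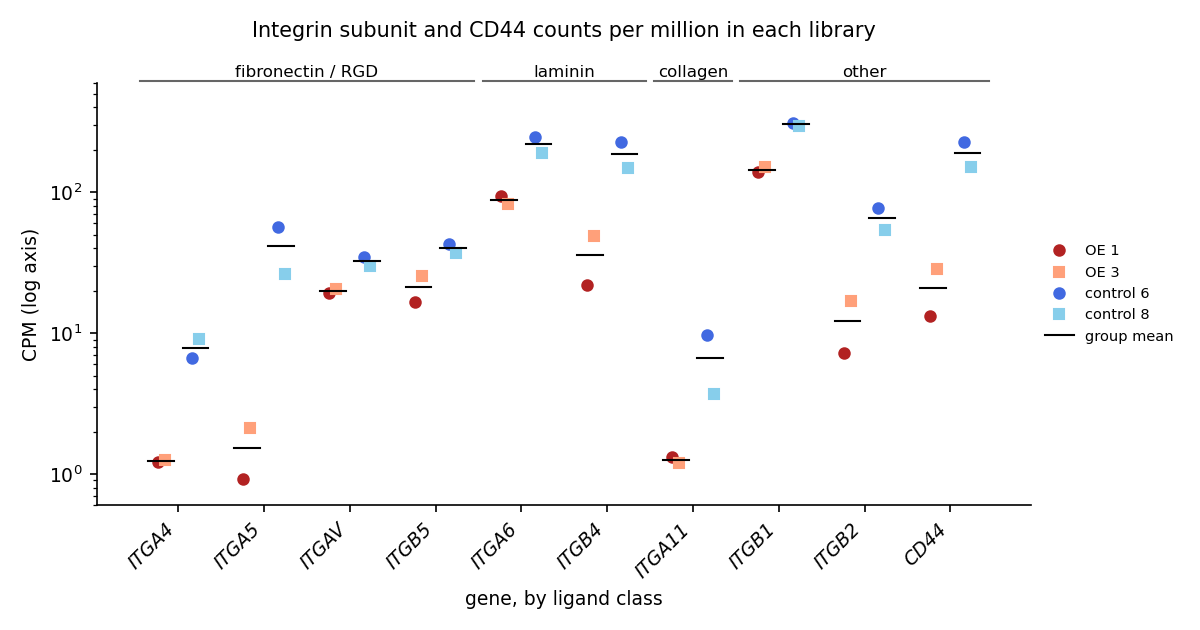
Level of each of the 10 genes in CPM (log axis) in the IRF-1 overexpressing libraries (OE 1 and OE 3) and the control libraries (control 6 and control 8), ordered by ligand class, with a black line at each group mean (n = 2). For all 10 genes both overexpressing points lie below both control points, with the widest gap for ITGA5, whose group means were 1.52 and 41.6 CPM.

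The ligand classes were set side by side. In the 4 genes of the fibronectin and RGD class the log2 fold change ran from -4.79 to -0.69. In the 2 laminin receptor genes it was -2.40 and -1.31, and in the 1 collagen receptor gene -2.39. The range inside the RGD class thus covered the values of the other classes, and no class stood apart from the rest as a whole. In the 3 genes outside these classes it ran from -3.19 to -1.08. Ordered by fold change, ITGA5 was followed by CD44, ITGA4, ITGB2, ITGB4, ITGA11, ITGA6, ITGB1, ITGB5 and ITGAV. The neighbours ITGB2, ITGB4 and ITGA11 lay within 1 standard error of each other, and differences between genes were not tested. Set against the 13250 genes tested, 1.31% had a lower value than CD44 and 2.23% a lower value than ITGA4. For ITGB2, ITGB4 and ITGA11 the share was 2.96%, 3.12% and 3.18%. The remaining genes were less far out, with 9.44% for ITGA6, 12.1% for ITGB1, 13.8% for ITGB5 and 18% for ITGAV. Counts of the 10 genes summed to 315 and 377 CPM with overexpression and to 1242 and 946 CPM in the control.

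The genes lie on 7 chromosomes, and exon lengths ran from 3264 bases for ITGA6 to 9021 for ITGA5. ITGA6, ITGA4 and ITGAV are on chromosome 15, in this order, and had log2 fold changes of -1.31, -2.68 and -0.69, so neighbours on that chromosome differed in size. ITGB2 and ITGB5 share chromosome 13, with -2.45 and -0.94, and ITGB5 alone of that pair was not called.

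Among the fibronectin and RGD receptors, 2 of 4 genes were called. ITGA5 (ENSSSCG00000000293, chromosome 5, 19583451 to 19611209) encodes the alpha subunit of the classical fibronectin receptor and pairs with ITGB1 alone. It had 23 and 44 counts with IRF-1 overexpression and 888 and 462 in the control. Both control libraries were far above both overexpressing ones. Within the groups the libraries differed 2.28-fold and 2.15-fold in CPM, far less than between the groups. The level was 1.52 ± 0.841 CPM in the overexpressing cells and 41.6 ± 21.5 CPM in the control cells (SD, n = 2). The log2 fold change of -4.79, a 27.7-fold difference, was the lowest of the 10 genes (SE 0.495, adjusted p = 0.000718 in edgeR), and 0.174% of all genes tested had a lower value. It was -5.47 without overexpressing replicate 3 and -4.14 without control replicate 6.

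ITGA4 (ENSSSCG00000016009, chromosome 15, 86946996 to 87029729) encodes a subunit that binds fibronectin and the endothelial receptor VCAM1, paired with ITGB1 or ITGB7. Its level was low, at 30 and 26 counts with IRF-1 overexpression and 104 and 159 in the control. The overexpressing libraries nearly coincided and the groups did not overlap. ITGA4 fell from 7.87 ± 1.72 to 1.23 ± 0.03 CPM (SD, n = 2), a log2 fold change of -2.68 (SE 0.357, adjusted p = 0.00167 in edgeR). The exons of ITGA4 overlap those of CERKL, on the opposite strand, by 579 bases, and CERKL had between 1 and 4 counts per library.

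The RGD receptor ITGAV (ENSSSCG00000016027, chromosome 15, 91604661 to 91711841) pairs with several beta subunits, ITGB1 and ITGB5 among them, and binds vitronectin and the latent form of TGF-beta. Its counts were 479 and 431 with IRF-1 overexpression and 546 and 521 in the control. On the CPM scale these were 19.3 and 20.7 against 34.9 and 29.8. The difference was the smallest of the 10, with a log2 fold change of -0.69 (SE 0.179, adjusted p = 0.0232 in edgeR). Without overexpressing replicate 1 the adjusted p was 0.163, without overexpressing replicate 3 it was 0.0828 and without control replicate 6 it was 0.069. ITGB5 (ENSSSCG00000037905, chromosome 13, 135467337 to 135590352), which pairs with ITGAV as a vitronectin receptor, had 412 and 532 counts against 676 and 653. The level was 21.1 ± 6.36 CPM in the overexpressing cells and 40.3 ± 4.19 CPM in the control cells (SD, n = 2), a log2 fold change of -0.94 (SE 0.232, adjusted p = 0.0202 in edgeR). ITGB5 sat at the edge of the fold limit, and single libraries moved it across. The log2 fold change was -1.27 without overexpressing replicate 3 and -1.03 without control replicate 8, both past the threshold, and -0.64 with an adjusted p of 0.135 without overexpressing replicate 1. The exons of ITGB5 overlap 2 unnamed genes on the opposite strand, by 336 and 33 bases.

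Both laminin receptor genes fell. ITGA6 (ENSSSCG00000015955, chromosome 15, 78504312 to 78589645) encodes the alpha subunit of laminin receptors with ITGB1 or ITGB4 and is a surface marker of pluripotent and other stem cells. It had 2343 and 1708 counts with IRF-1 overexpression and 3848 and 3346 in the control. Its level fell from 219 ± 38.8 to 88.2 ± 8.62 CPM (SD, n = 2), a log2 fold change of -1.31 (SE 0.172, adjusted p = 0.00158 in edgeR). The groups stood well apart, but tested with glmTreat against a log2 fold change of 1 itself, the adjusted p was 0.123.

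ITGB4 (ENSSSCG00000017204, chromosome 12, 5651021 to 5675543) pairs with ITGA6 alone, and its long tail binds plectin, which anchors keratin filaments at hemidesmosomes. It had 549 and 1022 counts with IRF-1 overexpression and 3567 and 2585 in the control. Control levels were far above overexpressing ones, and overexpressing replicate 3 lay above replicate 1. The level fell from 188 ± 56.9 to 35.6 ± 19.1 CPM (SD, n = 2), a log2 fold change of -2.40 (SE 0.373, adjusted p = 0.00313 in edgeR), and -3.08 without overexpressing replicate 3. The exons of ITGB4 overlap those of GALK1, on the opposite strand, by 135 bases.

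The 1 collagen receptor gene among the 10 was ITGA11 (ENSSSCG00000004961, chromosome 1, 166173135 to 166310972), which pairs with ITGB1 and binds fibrillar collagen, mostly on mesenchymal cells. It had 33 and 25 counts with IRF-1 overexpression and 151 and 65 in the control. The controls were both higher but differed 2.6-fold from each other in CPM. ITGA11 fell from 6.69 ± 4.2 to 1.26 ± 0.0893 CPM (SD, n = 2), a log2 fold change of -2.39 (SE 0.511, adjusted p = 0.0113 in edgeR). That value was -1.55 without control replicate 6, and with glmTreat the adjusted p was 0.0617. The exons of ITGA11 overlap those of FEM1B, on the opposite strand, by 76 bases, a gene with 876 to 1346 counts per library.

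The 3 genes outside these ligand classes were also lower. ITGB1 (ENSSSCG00000011101, chromosome 10, 56078401 to 56173795) is the beta subunit shared by most matrix receptors, those of fibronectin, laminin and collagen included. Its counts were 3443 and 3120 with IRF-1 overexpression and 4875 and 5183 in the control. The libraries of each group lay close together, at 139 and 150 CPM against 312 and 296 CPM. ITGB1 thus had the most evenly measured difference of the 10, with the smallest standard error (log2 fold change -1.08, SE 0.133, adjusted p = 0.0013 in edgeR). The value was just past the fold limit, and with glmTreat the adjusted p was 0.624.

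ITGB2 (ENSSSCG00000025133, chromosome 13, 207510960 to 207544146) is the beta subunit of the leukocyte integrins. It had 181 and 352 counts with IRF-1 overexpression and 1214 and 942 in the control. ITGB2 fell from 65.7 ± 16.8 to 12.1 ± 6.81 CPM (SD, n = 2), a log2 fold change of -2.45 (SE 0.377, adjusted p = 0.00303 in edgeR), and -3.17 without overexpressing replicate 3. The alpha subunits that pair with it were close to absent. ITGAL had 3 and 15 counts with IRF-1 overexpression and 11 and 39 in the control, and ITGAM had 19 and 3 against 17 and 11. Neither passed the test (adjusted p = 0.143 and 0.434 in edgeR), and no identifier carried the symbols of the other partners, ITGAX and ITGAD.

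CD44 (ENSSSCG00000013297, chromosome 2, 25788693 to 25884257) showed the second lowest fold change of the 10. It had 329 and 589 counts with IRF-1 overexpression and 3549 and 2631 in the control. Every control count was several times every overexpressing count. CD44 fell from 189 ± 54.2 to 20.8 ± 10.7 CPM (SD, n = 2), a log2 fold change of -3.19, or 9.11-fold (SE 0.366, adjusted p = 0.00101 in edgeR). The value was -3.83 without overexpressing replicate 3. Counts per gene do not separate the standard form of CD44 from its splice variants.

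Levels of different genes were compared per exon length, as RPKM from the same scaled library sizes. In the control cells ITGA6 (67 ± 11.9 RPKM) and ITGB1 (62.8 ± 2.29 RPKM) were the most abundant of the 10 and did not differ beyond their spread (SD, n = 2). ITGB4 (36.1 ± 10.9 RPKM) and CD44 (31.5 ± 9.06 RPKM) followed, again within their spread. ITGB2 (8 ± 2.05 RPKM) and ITGB5 (6.16 ± 0.641 RPKM) came next and overlapped, as did ITGA5 (4.61 ± 2.38 RPKM) and ITGAV (4.55 ± 0.512 RPKM). ITGA4 (1.16 ± 0.255 RPKM) and ITGA11 (0.912 ± 0.573 RPKM) were the least abundant and lay within their spread. ITGA6, ITGB1, ITGB4 and CD44 thus stood above the other 6 genes in the control cells. In the overexpressing cells ITGB1 (29.8 ± 1.67 RPKM) and ITGA6 (27.0 ± 2.64 RPKM) still led and lay within their spread. The next level, that of ITGB4, was 6.83 ± 3.67 RPKM, and CD44 was at 3.47 ± 1.78 RPKM, close to ITGB5 at 3.22 ± 0.973 and ITGAV at 2.81 ± 0.143 RPKM. ITGB2 was at 1.47 ± 0.828 RPKM. ITGA5 moved from the middle of the order to the bottom, at 0.168 ± 0.0932 RPKM, where it did not differ from ITGA4 or ITGA11 beyond the spread.

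Because partners were not lowered equally, the makeup of the subunit transcripts differed between groups. The 15 alpha subunit genes with a symbol summed to 46.4 and 40.7 RPKM with overexpression and 101 and 81.4 RPKM in the control. ITGA6 made up 62.2% and 61.7% of that sum with overexpression and 74.6% and 71.9% in the control. It was thus the main alpha subunit transcript in every library. ITGA5 made up 0.221% and 0.575% with overexpression against 6.23% and 3.59% in the control. ITGAV took a slightly larger part, 5.84% and 7.15% against 4.86% and 5.14%, although its level was lower. Among the subunits outside the 10, ITGA10 held 9.47% and 10.3% against 3.46% and 4.71%. ITGA2 held 8.5% and 6.14% against 1.75% and 3.85%, and neither gene was called. The share of ITGA4 was at most 1.65% in any library and that of ITGA11 at most 1.3%. The 8 beta subunit genes summed to 36.4 and 46.9 RPKM against 126 and 103 RPKM. ITGB1 held 78.6% and 66.1% of the beta sum with overexpression and 51.4% and 59.7% in the control, while ITGB4 held 11.6% and 20.1% against 34.9% and 27.6%. The beta pool therefore shifted from ITGB4 towards ITGB1 in these libraries. ITGB2 held 2.43% and 4.39% against 7.52% and 6.38%, and ITGB5 held 6.96% and 8.35% against 5.27% and 5.57%. The share of ITGB5 was thus higher in the overexpressing libraries while its level was not.

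Ratios between subunits, taken per library, separated the groups for some pairs and not for others. For the laminin receptors, the ratio of ITGA6 to ITGB4 was 6.81 and 2.67 with overexpression and 1.72 and 2.07 in the control, whereas that of ITGA6 to ITGB1 overlapped between groups (1.01 and 0.811 against 1.17 and 0.957). For the RGD receptors, the ratio of ITGAV to ITGA5 was 26.4 and 12.4 in the overexpressing libraries against 0.78 and 1.43. ITGA5 and ITGAV were thus near parity in the control libraries only. The ratio of ITGAV to its partner ITGB5 was 1.07 and 0.744 with overexpression against 0.742 and 0.733, so that overexpressing replicate 3 nearly matched the controls. The ratio of ITGB1 to the sum of the alpha subunits that pair with it, ITGAV left out, also overlapped between groups, at 0.673 and 0.852 against 0.679 and 0.809. ITGB1 thus kept pace with the sum of its partners. CD44 relative to ITGB1 was at 0.0772 and 0.153 with overexpression against 0.588 and 0.41, so CD44 was lower also against the main beta subunit. Ratios of transcripts say nothing of how many pairs reach the surface.

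**Figure D2:**
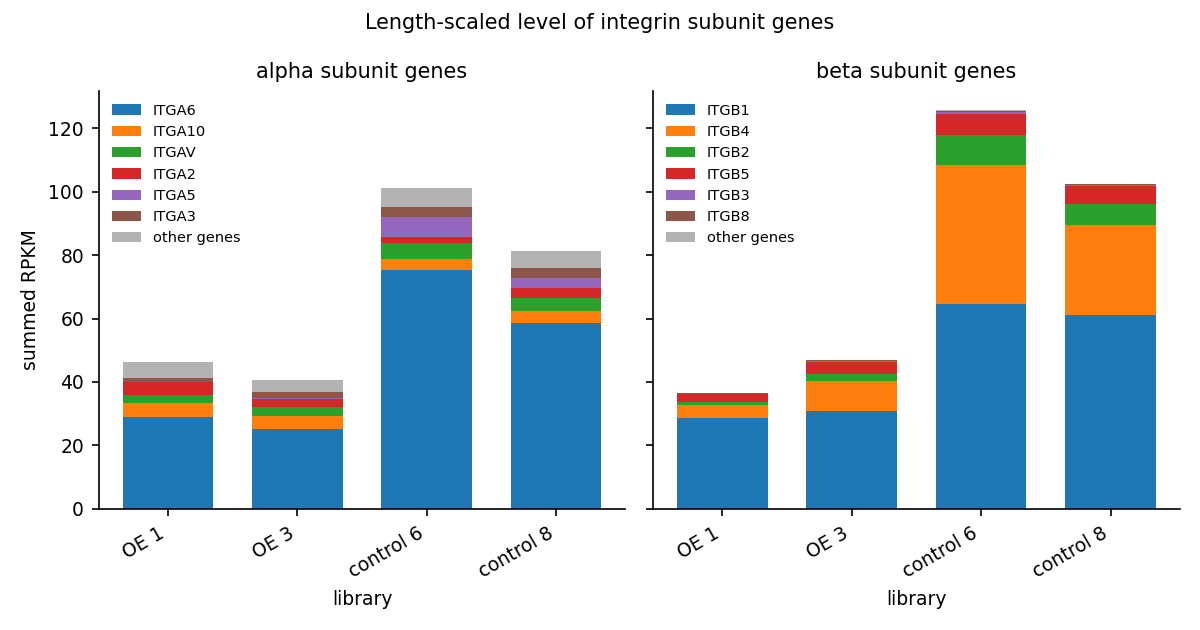
Summed RPKM of the alpha subunit genes (left) and beta subunit genes (right) in each library, stacked by gene, with OE for IRF-1 overexpressing. Both sums are lower in both overexpressing libraries (alpha 46.4 and 40.7 RPKM, beta 36.4 and 46.9) than in both controls (alpha 101 and 81.4, beta 126 and 103). The ITGB4 segment is a smaller share of the beta sum in both overexpressing libraries (11.6% and 20.1% against 34.9% and 27.6%).

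The 10 genes differed in how evenly the replicates agreed. In overexpressing replicate 3, ITGA5, ITGB2, ITGB4 and CD44 were 2.28, 2.32, 2.22 and 2.14 times as high as in replicate 1, on the CPM scale. Over the 10 genes, 8 were higher in replicate 3 than in replicate 1, against 50.4% of all genes tested. ITGA4, ITGAV and ITGB1 differed little between the same libraries, with ratios of 1.04, 1.07 and 1.08. In the control cells 9 of the 10 were higher in replicate 6 than in replicate 8, against 52.3% of all genes tested, the exception being ITGA4, with a ratio of 0.732. ITGA11 and ITGA5 differed most between the controls, 2.6-fold and 2.15-fold, and ITGB1 least, 1.05-fold. For ITGB2, ITGB4 and CD44 the control ratio was 1.44, 1.54 and 1.51. These spreads were all smaller than the fold change of the same gene between the groups. IRF1 was lower in overexpressing replicate 3 than in replicate 1, with a ratio of 0.798, so the library with less IRF1 was the nearer to the controls for most of these genes. With 2 libraries per group this order was not tested.

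Simple epithelial keratins, the filaments to which ITGB4 can be anchored, varied between the libraries in the same order. KRT8 had 6213 and 21095 counts with IRF-1 overexpression and 187722 and 130983 in the control (log2 fold change -3.95, adjusted p = 0.003 in edgeR; -3.25 without overexpressing replicate 1 and -5.28 without replicate 3). KRT18 had 343 and 1843 against 55405 and 35599 (-5.77, adjusted p = 0.00223 in edgeR; -4.96 and -7.65 without the same libraries). In overexpressing replicate 3 the keratins were 4.06 and 6.42 times as high as in replicate 1, as ITGB4 and CD44 were 2.22 and 2.14 times as high. Of 8 trophoblast and simple epithelium markers, 7 had an identifier, 4 were tested and 3 were lower, beside 10.6% of all genes tested. The 1 tested marker not called, GATA3, had 273 and 155 counts against 178 and 110 (0.07, adjusted p = 0.911 in edgeR). The 7 markers summed to 277 and 1113 CPM with overexpression and 15583 and 9544 CPM in the control, KRT8 being the most abundant. CDX2, ELF3 and KRT7 had at most 3 counts in every library. The part of these and the following markers in the integrin differences was not tested.

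Markers of other cells that carry integrins were read the same way. Of 13 pluripotency markers 6 had an identifier, POU5F1 and SOX2 not among them, and NANOG had 5 to 11 counts per library, too few to be tested. Of the 5 tested 3 were lower (LIN28A, CDH1 and ESRRB), or 60%, beside 10.6% of all genes tested. The other 2, EPCAM (0.21) and DNMT3B (0.27), were not called, and both overexpressing libraries lay above both control libraries. The median of the 5 was -1.34 in log2 fold change. ESRRB, a transcription factor of naive pluripotency, had 31 and 37 counts against 502 and 402 (-4.19, adjusted p = 0.000246 in edgeR). The list summed to 367 and 410 RPKM against 932 and 756 RPKM, with LIN28A as its most abundant gene by length. In CPM it summed to 1233 and 1277 against 1479 and 1641, most of it DNMT3B in the overexpressing libraries (1034 and 1005 CPM), which was not called. Of 14 fibroblast or feeder markers, relevant to ITGA11, 12 had an identifier and 8 were tested, 4 of them lower and 2 higher (1 higher without overexpressing replicate 1 or control replicate 8). These were 50% and 25%, beside 10.6% and 8.61% of all genes tested, and the median log2 fold change of the 8 was -1.79. PDGFRB, a receptor of mesenchymal cells, had 28 and 62 counts against 1966 and 978 (-5.49, adjusted p = 0.000595 in edgeR; -6.32 without overexpressing replicate 3 and -4.79 without control replicate 6). The list summed to 203 and 129 CPM against 242 and 133 CPM, in which COL1A2 (139 and 81.2 CPM against 64.3 and 39.9 CPM) was the most abundant with overexpression and PDGFRB (126 and 55.9 CPM) in the control. The 2 higher genes were PRRX1, with 1399 and 741 counts against 245 and 250 (1.62, adjusted p = 0.00269 in edgeR), and COL1A2 (1.08, adjusted p = 0.0301 in edgeR). LUM was at 3 counts or fewer in every library. Of 6 endothelial markers 4 had an identifier, 3 were tested and 1 was lower (2 without overexpressing replicate 1), beside 10.6% of all genes tested. They summed to 3.3 and 6.63 CPM against 56.9 and 64.3 CPM, of which TEK, the most abundant, held 2.21 and 5.62 CPM against 54.7 and 62.1 CPM, and CDH5 had at most 1 count in every library.

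For ITGB2 the leukocyte markers bear on the label. All 11, ITGAL and ITGAM among them, had an identifier, and PTPRC, the general leukocyte marker, was at 0 to 1 counts in every library, where ITGB2 had 181 or more. CD3E and CD14 also had at most 3 counts throughout. Of the 8 tested, LCP1 and CORO1A were higher, 25% beside 8.61% of all genes tested, and the other 6 were not called. The list summed to 270 and 179 CPM against 21.4 and 17.1 CPM. LCP1, with 5809 and 3105 counts against 30 and 21, made up most of the sum in the overexpressing libraries (234 and 149 CPM) but little of it in the control (1.92 and 1.2 CPM). The sum was higher with overexpression, opposite to ITGB2, but the median log2 fold change of the 8 tested genes was -0.28. Of the 6 not called, SPI1 (-0.41), CD68 (-0.15), CSF1R (-0.74), ITGAL (-1.85) and ITGAM (-0.86) had negative values. CD79A (0.72) had a positive one, but 3229 of its 5179 exon bases are shared with ARHGEF1 on the same strand, so its value is uncertain.

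The integrin subunits beyond the 9 described were mostly not called. Of 17 such genes 14 had an identifier and 10 were tested, of which 1 was lower, 1 was higher and 8 were not called (median log2 fold change -0.67). These shares, 10% lower and 10% higher, were close to the 10.6% and 8.61% of all genes tested. The lower count was 3 without overexpressing replicate 3 and 2 without control replicate 8. The lower gene, ITGA3, is a laminin receptor subunit and partner of ITGB1 (-1.19, adjusted p = 0.0151 in edgeR). Its call was lost without overexpressing replicate 1 (-0.83, adjusted p = 0.0848), which left 0 of the 10 lower, and with glmTreat (adjusted p = 0.544). The higher gene, ITGA8, named after its values were seen, is an RGD receptor subunit that also pairs with ITGB1. It had 223 and 100 counts with IRF-1 overexpression and 9 and 9 in the control (log2 fold change 3.65, SE 0.482, adjusted p = 0.00162 in edgeR). The most abundant by length in every library was the collagen receptor subunit ITGA10, with a log2 fold change of 0.23 (SE 0.157), which was not called.

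**Figure D3:**
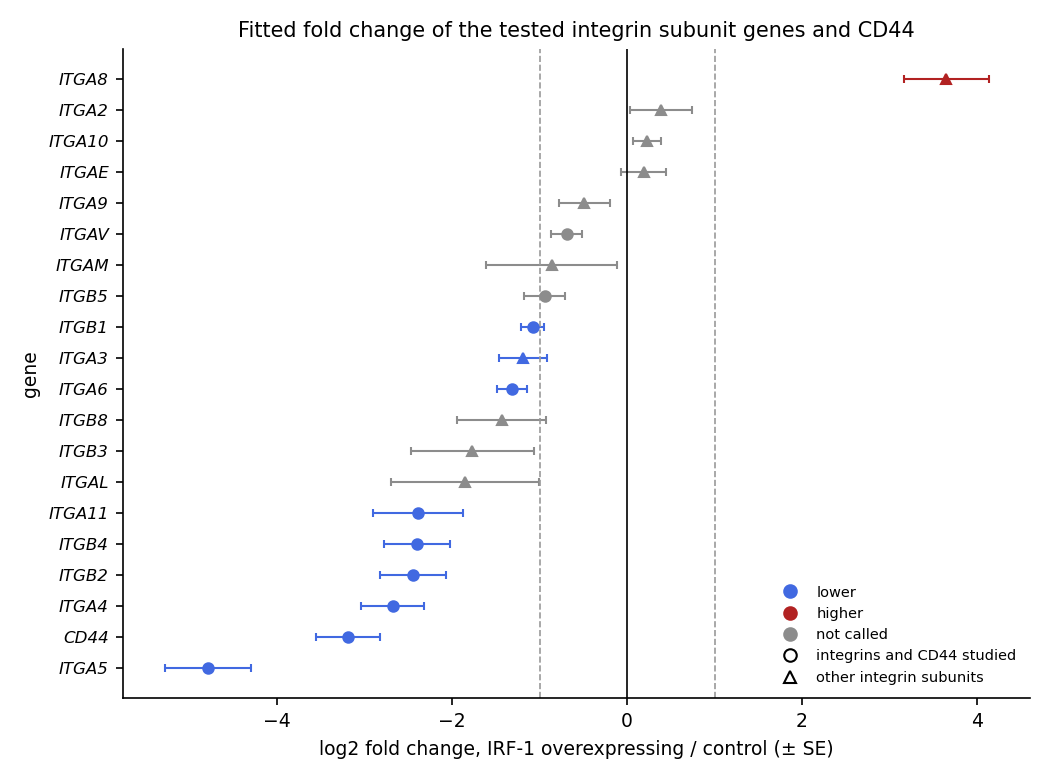
Fitted log2 fold change (IRF-1 overexpressing over control, bars are standard errors, n = 2 per group) of the tested integrin subunit genes and CD44, with dashed lines at the fold limit of 1. Circles are the 10 genes described and triangles the other subunits, coloured by call; the values run from -4.79 for ITGA5 to 3.65 for ITGA8.

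The ligands of the 10 receptors gave mixed counts, to be read beside 10.6% lower and 8.61% higher over all genes tested. Of 20 genes for fibronectin and other RGD ligands 13 were tested, 3 of them lower (23.1%) and 1 higher (7.69%), at a median of -0.34 in log2 fold change (5 lower without control replicate 8). FN1, the fibronectin bound by ITGA5 and ITGA4, was at 165 ± 22.5 CPM in the overexpressing cells and 325 ± 55.2 CPM in the control cells (SD, n = 2). Its log2 fold change of -0.98 lay just inside the fold limit (SE 0.172, adjusted p = 0.00511 in edgeR), and passed it without overexpressing replicate 1 (-1.11, adjusted p = 0.0193) or control replicate 6 (-1.14, adjusted p = 0.000256). Of 12 laminin chains, the ligands of ITGA6 and ITGB4, 7 were tested, 3 of which were lower (42.9%) and 4 not called, with a median of -0.48. LAMA5 had 554 and 895 counts against 6324 and 4923 (-3.40, SE 0.33, adjusted p = 0.000598 in edgeR). Of 30 collagen chains 19 were tested, 9 lower (47.4%) and 5 higher (26.3%), with a median of -0.79. The higher count was 1 without overexpressing replicate 1 and 2 without control replicate 8. Of 13 cell surface counter-receptors 8 were tested, 5 lower (62.5%) and 1 higher (12.5%), with a median of -1.19, the higher call being lost without overexpressing replicate 1 or control replicate 8. VCAM1, the cell-bound ligand of ITGA4, had 0 counts in every library, as did ICAM4, a ligand of ITGB2 integrins. ICAM3 also had 0 counts, but 1712 of its 1729 exon bases are shared with RAVER1 on the same strand, so its level could not be read from these counts.

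Inside the cell, 35 of 40 integrin activators and actin linkers were tested, 15 of them lower (42.9%) and 4 higher (11.4%), with a median of -0.77, beside 10.6% and 8.61% of all genes tested. FLNA, the filamin that binds beta tails, had the highest CPM of the list in every library and fell from 2901 ± 369 to 932 ± 200 CPM (SD, n = 2), a log2 fold change of -1.64 (adjusted p = 0.000875 in edgeR). The tensin TNS1, which ties beta tails to actin in long-lived adhesions, ran the other way, with 8100 and 5020 counts against 467 and 553 (3.21, SE 0.19, adjusted p = 0.000145 in edgeR). Of 26 signalling genes 25 were tested, 4 lower (16%) and 21 not called, with a median of -0.20 (1 higher without control replicate 6). Of 19 genes for inhibition and trafficking 14 were tested, 2 lower (14.3%) and 1 higher (7.14%), with a median of -0.28, so both of these lists lay near the background. Of 24 membrane partners 18 were tested, 8 lower (44.4%) and 1 higher (5.56%), with a median of -0.93 (4 lower without overexpressing replicate 1; none higher without that library or control replicate 8, and 2 higher without overexpressing replicate 3). CD151, the tetraspanin that binds the ITGA6 receptors, was among the lower ones (-2.78, adjusted p = 0.000672 in edgeR), although 693 of its exon bases are shared with TSPAN4 on the same strand and 1974 with an unnamed gene on the opposite strand.

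Around CD44, 20 of 31 genes of the hyaluronan system were tested, 5 lower (25%) and 2 higher (10%), with a median of -0.50, beside 10.6% and 8.61% of all genes tested (1 higher without overexpressing replicate 1). HAS2, a hyaluronan synthase that makes the ligand of CD44, had 1051 and 799 counts with IRF-1 overexpression and 63 and 98 in the control. Its level rose from 4.81 ± 1.11 to 40.3 ± 2.75 CPM (SD, n = 2), a log2 fold change of 3.06 (SE 0.229, adjusted p = 0.00025 in edgeR), opposite in direction to CD44. Of the proteins that tie the CD44 tail to actin, moesin (MSN) was lower at -1.44 (adjusted p = 0.000927 in edgeR), while ezrin (EZR), the most abundant gene of the list by length, had a log2 fold change of -0.14.

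**Figure D4:**
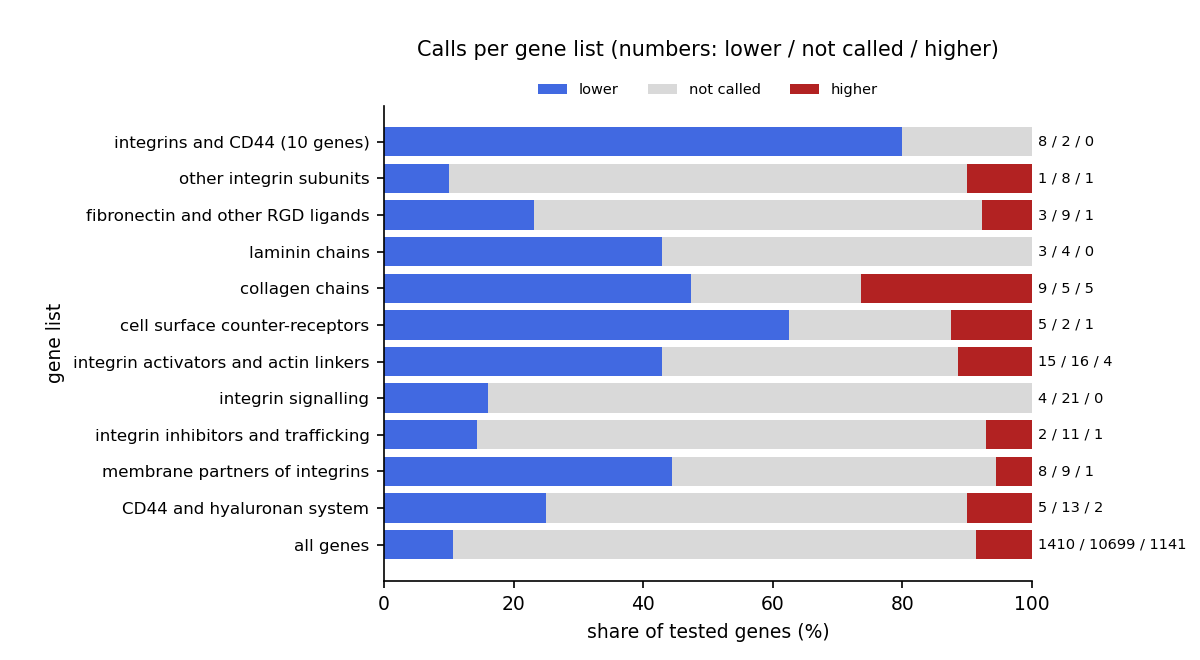
Share of tested genes called lower (blue), not called (grey) and called higher (red) in each gene list, with the numbers of genes at the right, for IRF-1 overexpressing against control cells (n = 2 per group). The 10 integrin and CD44 genes have 8 lower and 2 not called, and all genes tested have 1410 lower, 10699 not called and 1141 higher.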

How the data were processed

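Oligo(dT) libraries were aligned by the authors with HISAT2 (version 2.0.4 in the submitters' processing notes) to Sus scrofa 11.1 and counted per gene with featureCounts (1.6.4), and the deposited values were raw counts. The methods also name htseq-count. The annotation release, strand setting and treatment of reads with several matches were not given in the sources used here, so overlapping genes are uncertain. Besides those given in the text, exon bases are shared by ITGA10 (418), LAMA5 (176), FLNA (76), ITGAM (141), DNMT3B (180) and CORO1A (1220 and 495). The same holds for CSF1R (2813) and CD68 (121). Symbols came from pig Ensembl names, matched for 14692 of 24358 identifiers. Counts were filtered with filterByExpr, scaled by TMM and tested with edgeR 4.0.16 (R 4.3.3), with Benjamini-Hochberg adjustment over all genes tested. Standard errors were taken from the quasi-likelihood F. CPM and RPKM were computed from the deposited counts, the scaled library sizes and the exon lengths in the table. The code was tested on simulated data. The members and lists were chosen with earlier results of these data known. Named from each list were called genes with at least 5 CPM and separate groups (up to 3 lowest and 3 highest), the 2 most abundant, and genes at 3 counts or fewer throughout. Gene lists with a library left out were counted over the genes tested with all 4. The text gives a selection of the named genes, made after seeing their values. Calls were recomputed under 14 other settings and the alpha subunit shares with TPM, and 1 more setting, library totals in place of TMM for summed marker levels, was chosen after seeing the data. The ChIP-seq libraries were not analysed here.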

Additional observations from a re-analysis of the deposited data

How the results depend on the processing

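The count of 8 lower genes among the 10 was kept under the other scalings, filters and tests (RLE, upper quartile, library size alone, no filter, at least 1 CPM in 2 libraries, DESeq2, limma-voom, and without mitochondrial and the 10 highest genes). With glmTreat it was 5, as ITGA6, ITGA11 and ITGB1 were lost, and all genes called were 603 lower and 611 higher in place of 1410 and 1141, since that test asks for more than the fold limit. With no fold limit 10 of the 10 were lower and 1842 of all genes were higher. With each library left out in turn, the lone library being assumed to vary like the other group, 8 to 9 of the 10 were lower, their median ran from -2.55 to -1.80, and all genes called ran from 874 to 1548 lower and from 756 to 1156 higher, each fit being filtered anew (874 to 1510 and 750 to 1137 over the genes tested with all 4 libraries). Over the 10 genes and 14 alternatives, 133 of the single results kept their side of the threshold, 3 lost it and 4 gained it, and the direction held in each. No paired analysis was possible because the groups share no replicate numbers. An exact permutation test of 2 against 2 libraries cannot give a p below 0.333. ITGA4, ITGA5 and ITGA11 rest on 23 to 44 counts per overexpressing library. Summed marker levels over library totals alone kept their order between the groups.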
